A study of Mus musculus with 17 samples.

Results

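Lipid storage in mouse Th2 cells, the helper T cells of allergic responses, was followed through 9 genes: Pparg, Dgat1, Dgat2, Plin2, Plin3, Cd36, Fabp5, Cpt1a and Pnpla2. They were taken by gene symbol, and each stood once, under the same RefSeq transcript, in all 17 expression tables, so 9 of 9 were found among 24537 genes. Cells were sorted, their RNA was read by Smart-seq2, which amplifies cDNA of few cells, and levels are RPKM (reads scaled to transcript length and to the library's total) divided by 1 scale factor per library. The groups numbered 6. GATIR mice report Gata3 expression through a yellow fluorescent protein (YFP) and gave Th2 cells from bronchoalveolar lavage, called airway here (3 libraries), and from the mediastinal lymph node, called node (3 libraries). The titles of these reporter libraries carry WT, but wild type below refers to OTII libraries. OTII mice, whose CD4 T cells carry 1 receptor against ovalbumin, gave node Th2 cells labelled OTII, the wild type (3), or OTII_Notch1/2-KO (4). All of these mice had an airway inflammation driven by allergen, and the column headers of the node OTII tables name OVA-HDM. The same 2 genotypes gave Th2 cultures (2 libraries each). These began as naive T cells of the spleen and were kept 7 days with IL-4 and anti-CD3/CD28, while antibodies (anti-IL-12/23, anti-IFN-γ) blocked other cytokines. The labels give neither the promoter that drives the Notch deletion nor the age of the mice, and they do not tie a replicate to an animal. Some node OTII libraries share a first number in their column headers, called header number below. Wild type replicates 2 and 3 share WT2, knockout-labelled replicates 1 and 2 share KO1, and replicates 3 and 4 share KO2. What this number marks is not stated, so such libraries may not be independent. P-values therefore measure the spread between these libraries, which may be partly technical.

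Cells store fatty acids as triglycerides in lipid droplets. PPARγ, encoded by Pparg, is a nuclear receptor that binds fatty acid ligands and, paired with a retinoid X receptor, switches on genes of lipid uptake and storage; in T cells it is known for its high level in Th2 cells of tissues. Dgat1 and Dgat2 encode the enzymes of the last step of triglyceride synthesis, and Plin2 and Plin3 encode proteins that coat droplets. Cd36 encodes a fatty acid receptor at the cell surface and Fabp5 a carrier in the cytosol. Pnpla2 encodes the lipase that opens stored triglyceride, and Cpt1a the enzyme that commits fatty acids to burning in mitochondria.

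Libraries held 16.3 to 27.5 M reads. T cell markers were high in all groups (the sum over 7 genes was 1167 to 3693, led by Cd3g at 1197 and Lck at 1034 in the airway). Marker lists of other cells were summed in each library, and some of their genes are also expressed by T cells. Macrophage markers summed to 3220, 7639 and 3265 in airway replicates 1 to 3, against 10.99 to 49.99 in the reporter node and at most 6.90 in OTII libraries. They were led by Chil3 (2985) and Lyz2 (1366), and 10 of the 14 markers were listed at 0 in all reporter node libraries. The basophil and mast cell list peaked in the reporter node (554 to 880, airway 148 to 276), with Hdc at 533 and Mcpt8 at 132, while Fcer1a, Ms4a2 and Gata2 were listed at 0 there. The ILC2 list peaked there too (345 to 548; Klrg1 247, Il17rb 120), as did B cell genes (35.4 to 56.8; Cd79b 18.6, Cd79a 12.4) and CD8 and NK genes, at 6.78 to 16.6 (Cd8b1 10.8, Cd8a 0.656). In the airway, epithelial genes were led by Scgb1a1 (43.1) and Sftpc (2.88), eosinophil genes by Ccr3 (22.5) and Siglecf (3.76), dendritic cell genes by Xcr1 (12.6) and Cd209a (7.42), and neutrophil genes by S100a8 (4.74) and Retnlg (2.48). Adipocyte genes summed to at most 1.54 outside airway replicate 1, where Cidec was at 11.8. Between 12177 and 14385 genes were listed at 0 in each reporter table, against 9432 to 10128 in each OTII table.

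Dgat1, Plin2 and Pparg dominated the airway cells, at means of 215, 152 and 89.7 scaled RPKM. In the reporter node the same genes stood at 35.7, 38.2 and 55.8, and in the 4 OTII groups none of them passed a group mean of 24.4. The order of group means was airway, then reporter node, for all 3. Pparg differed 15.4-fold, Dgat1 19.2-fold and Plin2 19.1-fold between the highest and the lowest group. The remaining genes did not share that order: Plin3 and Fabp5 were highest in culture, Cpt1a was about as high in the airway as in knockout-labelled node cells, and Pnpla2 was lowest in the airway. Neighbours in the order overlapped for Dgat1 between the reporter node and wild type cultures, for Pparg and Plin2 among most OTII groups, and for Pnpla2 between every neighbouring pair. Reporter and OTII mice are set side by side without a test, since the kind of mouse and the group cannot be told apart. In bulk RNA, fewer cells of a type and less RNA per cell cannot be told apart.

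**Figure D1:**
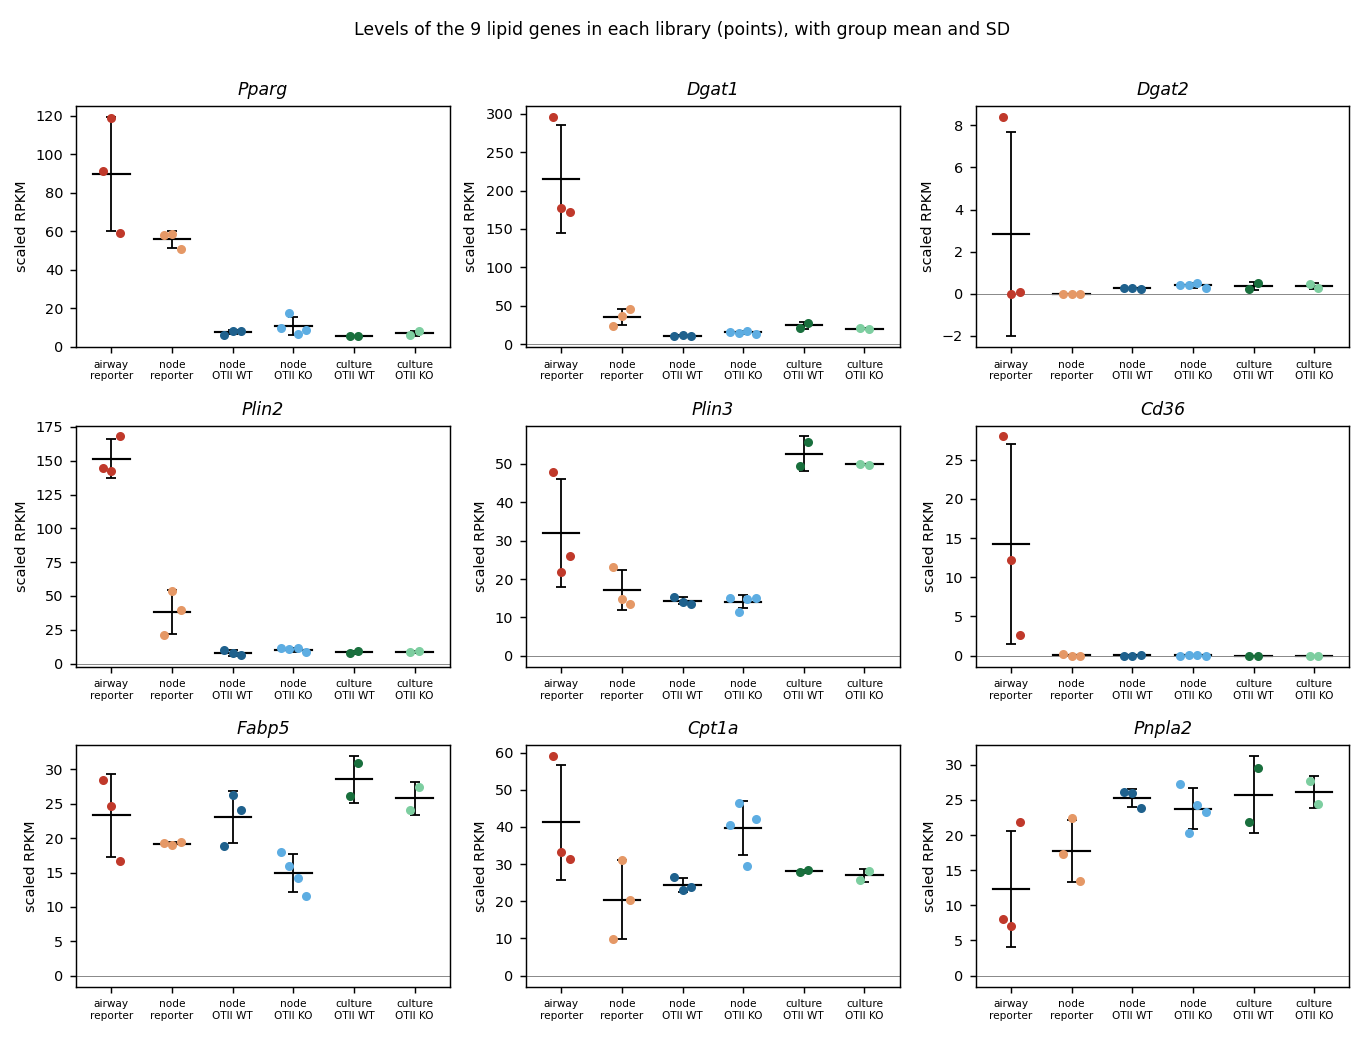
Scaled RPKM (vertical axis, linear, 1 scale per gene) of each lipid gene in every library (points), by group (horizontal axis; WT is wild type and KO knockout-labelled), with the group mean (bar) and SD (whisker). Dgat1, Plin2 and Pparg are highest in the airway (means 215, 152 and 89.7) and Plin3 in culture (52.6 and 49.9). The airway mean of Dgat2 rests on replicate 1, and Cd36 has nearly all its reads in the airway.

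The comparison of airway with node reporter Th2 cells asks how the cells differ between the inflamed lumen and the node that drains it. Dgat1 and Plin2 rose in the airway, no member fell, and 5 tested members, Pparg among them, did not pass. Cd36, the remaining tested member, reached the level of 1 that the test asks for in airway libraries only. The filter thus favoured a difference, so Cd36 is described without a test and left out of the counts. Of all 10111 genes tested, 2.97% rose and 2.3% fell (adjusted p under 0.05, limma). Shares and medians over all genes, here and below, keep genes that reached a level of 1 in 1 group only. In 4 of the 7 members (Pparg, Dgat1, Plin2 and Cpt1a) every airway library lay above every node library, as in 13.1% of all genes, and in 0 members below, as in 13.8%. The median log2 fold change was 0.81 over the 7 members and -0.07 over all genes. With RPKM as deposited the median of all genes moved to -0.20, and the 300 genes that rose and 233 that fell became 229 and 317; no member changed its direction or its call.

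The nuclear receptor gene is given first. Pparg (NM_001308354, chromosome 6, 115362349 to 115490401, plus strand, mm10) was at 91.1, 119 and 59.2 scaled RPKM in airway replicates 1 to 3. In node replicates 1 to 3 it was at 57.8, 58.6 and 50.8. The lowest airway library and the highest node library thus lay 59.2 against 58.6, and the groups did not overlap. The log2 fold change of 0.62 (SE 0.26) did not pass (limma adjusted p = 0.219), nor did it under any of the 11 other settings tried (adjusted p from 0.0590 to 0.487). Both groups were among the upper genes of their libraries, between the 93.6th and the 97.5th percentile of all genes.

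Dgat1, of triglyceride synthesis, had the smallest p among the members. Dgat1 (NM_010046, chromosome 15, 76502015 to 76511818, minus strand) was at 296, 178 and 172 in the airway, on 5672 to 9050 reads, and at 24.2, 37.3 and 45.5 in the node. Every airway library lay far above every node library, and the group means were 215 ± 70.0 and 35.7 ± 10.7 (SD, n = 3 each). The log2 fold change was 2.56 (SE 0.29, limma adjusted p = 0.00199), and the call held under all 11 other settings. Dgat2 (NM_026384, chromosome 7, 99153663 to 99182713) was not tested, because only 1 reporter library reached a level of 1. Its reads in the airway numbered 332, 0 and 3, and it was listed at 0 in all 3 node libraries, where 0 reads allow up to 0.0663 scaled RPKM (3 reads per library, counting error only). Airway replicate 1, which held those 332 reads, was also the library with Cidec, a droplet gene of adipocytes, at 11.8. Their part in each other's level was not tested. Dgat1 made up 97.2% to 100% of the summed level of both genes in the reporter libraries.

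Of the droplet coats, Plin2 rose and Plin3 did not pass. Plin2 (NM_007408, chromosome 4, 86656565 to 86670059, minus strand) was at 145, 142 and 168 in the airway and at 21.1, 54.0 and 39.7 in the node. The 3 airway libraries lay close together and far above the node libraries, which spread 2.56-fold among themselves. The log2 fold change was 2.05 (SE 0.31, limma adjusted p = 0.00811); with no filter on low values the adjusted p was 0.0507. Plin3 (NM_025836, chromosome 17, 56278962 to 56290511) was at 48.0, 21.8 and 25.9 in the airway and at 23.1, 14.9 and 13.4 in the node. Its groups overlapped (log2 fold change 0.81, SE 0.37, limma adjusted p = 0.262).

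Among the genes that bring fatty acids in, Cd36 had nearly all its reads in the airway libraries, which spread widely. Cd36 (NM_001159557, chromosome 5, 17781690 to 17849792, minus strand) was at 28.0, 12.2 and 2.63 in airway replicates 1 to 3, on 1690, 805 and 171 reads. In the reporter node it had 10, 0 and 0 reads, and over all 11 OTII libraries 3 reads. All 3 airway libraries lay above all 3 node libraries. Fabp5 (NM_010634, chromosome 3, 10012585 to 10016610) was at 28.5, 24.7 and 16.7 in the airway and at 19.3, 19.0 and 19.4 in the node. The airway range enclosed the node values (log2 fold change 0.23, SE 0.30, limma adjusted p = 0.724).

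Use of stored fat gave no call. Cpt1a (NM_013495, chromosome 19, 3323301 to 3385733) was at 59.0, 33.4 and 31.4 in the airway and at 9.90, 31.1 and 20.3 in the node. Airway replicate 3 and node replicate 2 nearly met, although the groups did not overlap (log2 fold change 1.06, SE 0.43, limma adjusted p = 0.208). Pnpla2 (NM_001163689, chromosome 7, 141455188 to 141460743) was at 8.07, 7.03 and 21.8 in the airway and at 17.3, 22.4 and 13.5 in the node. A single airway library lay within the node range and the other 2 below it (log2 fold change -0.63, SE 0.46, limma adjusted p = 0.502).

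Macrophage RNA moved with this comparison, and macrophages of the airways are known to express Pparg, Plin2, Cd36, Lpl and Fabp4. Each of the 14 markers in the tables had RNA in at least 1 airway library, and the summed level was 3220 to 7639 there against 10.99 to 49.99 in the node. Of them 10, among them Marco, Ear1, Ear2, Car4, Krt79 and Clec7a, were listed at 0 in all 3 node libraries. Across the airway libraries the sum, led by Chil3, was highest in replicate 2. Its markers did not share that order. Lyz2, Cd68, Ear1, Mrc1, Csf1r and Adgre1 were highest in replicate 1, and the other markers in replicate 2. Pparg was highest in replicate 2, Dgat1 and Cd36 in replicate 1 and Plin2 in replicate 3. The part of macrophage RNA in these results was not tested.

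**Figure D2:**
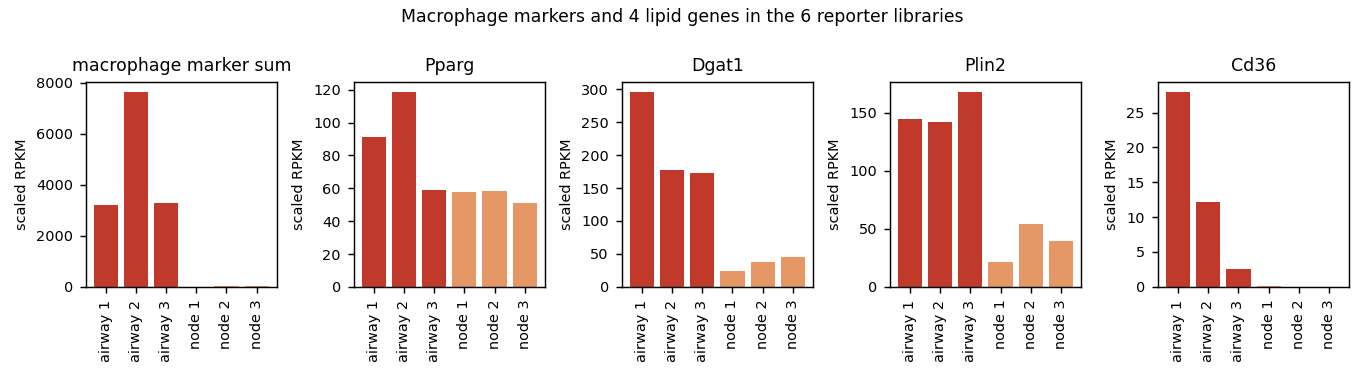
Summed scaled RPKM of 14 macrophage markers and scaled RPKM of Pparg, Dgat1, Plin2 and Cd36 (vertical axes, linear from 0) in each of the 6 reporter libraries (bars). The marker sum is 3220 to 7639 in the airway and at most 49.99 in the node. Its highest library is airway replicate 2, as is that of its leading gene Chil3. Dgat1 and Cd36 are highest in airway replicate 1, as are some of the markers, among them Lyz2 and Cd68.

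Gene starts were searched for the element that PPARγ binds with its retinoid X receptor partner, the direct repeat of AGGTCA with 1 base between the copies. Windows of 300 bases, from 250 before to 50 after each RefSeq gene start (GRCm38.p6), existed for 6 of the 9 members in 8 windows. Dgat1, Dgat2 and Fabp5 had none. Both strands were searched with up to 2 mismatches over the 12 bases of the repeat. Of these windows 2 held a match, that of Plin2 and that of Cd36, each with 2 mismatches, as did 3.86% of all 32851 windows. The 3 windows of Pparg and those of Plin3, Cpt1a and Pnpla2 held none. The 250 bases before each gene start follow, 5′ to 3′ on the gene's strand, with the matched 13 bases in capitals; both matches lie on the opposite strand. The Plin2 stretch is chr4:86670060-86670309 (minus strand), and the Cd36 stretch is chr5:17835897-17836146 (minus strand). The Plin2 start is that of the transcript measured here, whereas the Cd36 start lies inside the longer transcript measured here and is another start of the gene.
Plin2: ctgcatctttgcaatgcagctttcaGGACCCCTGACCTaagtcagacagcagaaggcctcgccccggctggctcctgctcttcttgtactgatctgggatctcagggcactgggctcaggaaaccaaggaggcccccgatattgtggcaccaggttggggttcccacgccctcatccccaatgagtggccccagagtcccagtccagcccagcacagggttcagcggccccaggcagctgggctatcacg
Cd36: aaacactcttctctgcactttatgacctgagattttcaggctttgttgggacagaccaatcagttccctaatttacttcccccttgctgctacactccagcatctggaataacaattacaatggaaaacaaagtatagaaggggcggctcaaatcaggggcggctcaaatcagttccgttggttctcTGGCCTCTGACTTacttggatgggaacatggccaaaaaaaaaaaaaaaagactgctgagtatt
A match is a description of letters, and no binding was measured here.

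Wider lipid lists followed the members only in part. Of 7 uptake and carrier genes that reached a level of 1 in both groups, Dbi, which encodes an acyl-CoA binding protein, fell, 0 rose and 6 did not pass (median log2 fold change -0.44). Lpl, which frees fatty acids from lipoproteins, and the carrier gene Fabp4 reached that level in the airway only. The filter thus favoured a difference, and both are given as a description. Lpl had 670 to 1307 reads in each airway library and 0 in every node library. Its airway level was 12.7 ± 4.02, and 0 reads in the node allow up to 0.0368 scaled RPKM (3 reads per library, counting error only). Fabp4 was at 16.7 ± 4.97 against 0.313 ± 0.543. Dbi fell from 238 ± 8.42 to 136 ± 14.1 (adjusted p = 0.0141), a call lost without node replicate 1, 2 or 3 (0.0606, 0.0838 and 0.0904) and in limma-voom (0.0611).

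Of 13 other synthesis genes that reached a level of 1 in both groups, 1 fell and 12 did not pass. Agpat3, an acyltransferase gene, fell from 22.8 ± 3.28 to 6.70 ± 0.456 (limma adjusted p = 0.0268, and 0.135, 0.169 and 0.121 without node replicate 1, 2 and 3). Of 24 tested genes of the carnitine shuttle and fatty acid oxidation 1 fell, Ucp2, a mitochondrial carrier gene, from 786 ± 90.4 to 359 ± 71.8 (adjusted p = 0.00741), and 23 did not pass. No gene passed among 11 PPAR partner genes, 7 droplet coat and assembly genes and 8 lipolysis genes (limma; medians 0.42, 0.05 and 0.58). Pparg was the main PPAR gene of the reporter cells: Ppara was listed at 0 in all 6 libraries, and Ppard had means of 0.159 and 0.408. In OTII groups Ppard stood at 7.15 to 8.06, next to Pparg at 5.81 to 10.8.

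The OTII node cells labelled Notch1/2 knockout were compared with wild type to ask which genes depend on Notch in the node. Dgat1 and Cpt1a rose and Fabp5 fell in knockout-labelled cells, all by less than 2-fold, and 4 of the 7 tested members did not pass. Of all 10869 genes tested 10.4% rose and 7.68% fell, so a count of 2 and 1 among 7 stands against a broad background. Groups did not overlap in 2 members that were higher and 1 that was lower, against 17.2% and 14.1% of all genes. The median log2 fold change was 0.37 over the 7 members and 0.02 over all genes. As a check of the labels, Notch1 stood at 47.9 ± 1.47 in wild type and 10.9 ± 2.31 in knockout-labelled libraries (log2 fold change -2.06, SE 0.15, limma adjusted p = 5.49e-05). Notch2 rose (7.88 ± 0.305 to 16.2 ± 2.09, adjusted p = 5.95e-04), and RPKM summed over a transcript cannot check the loss of single exons, which the sources used here do not name.

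Dgat1 was at 10.8, 11.4 and 11.4 in the wild type libraries, on 343 to 430 reads. In knockout-labelled replicates 1 to 4 it was at 16.1, 14.4, 17.6 and 13.2. All 4 lay above all 3 wild type libraries (log2 fold change 0.42, SE 0.10, limma adjusted p = 0.0252). The call was lost without wild type replicate 1, 2 or 3 (0.0848, 0.0814 and 0.0800) and without knockout-labelled replicate 1 or 3 (0.0508 and 0.0617). Dgat2 was too low for the test in every OTII group, with 10 to 27 reads in each library, and Dgat1 made up 97.1% to 98.9% of their sum there.

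Fabp5 was at 18.9, 26.3 and 24.2 in wild type and at 18.03, 15.96, 14.2 and 11.6 in knockout-labelled cells. The lowest wild type library and the highest knockout-labelled library were close (18.9 and 18.03), and the groups did not overlap. It fell by 0.60 on the log2 scale (SE 0.16, limma adjusted p = 0.0295). The call was lost without wild type replicate 2 or 3 (0.133 and 0.106), without knockout-labelled replicate 3 or 4 (0.0687 and 0.0655), with no filter on low values (0.0609), and with libraries that share a header number averaged (0.0788).

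Cpt1a was at 26.5, 22.9 and 23.8 in wild type and at 40.6, 46.5, 29.4 and 42.3 in knockout-labelled cells. Replicate 3 was the lowest of its group and still above every wild type library. The log2 fold change was 0.66 (SE 0.14, limma adjusted p = 0.0137), a call lost without wild type replicate 2 or 3 (0.0646 and 0.0564).

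Pparg itself was at 6.34, 8.41 and 8.05 in wild type and at 9.97, 17.7, 6.61 and 8.83 in knockout-labelled cells. A single library, replicate 2, was more than 1.5-fold above the others, and the groups overlapped (log2 fold change 0.38, SE 0.26, limma adjusted p = 0.359). Plin2 was at 10.3, 7.44 and 6.03 against 11.5, 10.6, 11.1 and 8.22, with overlap (log2 fold change 0.37, SE 0.17, limma adjusted p = 0.170). Plin3 was level at 14.3 ± 0.915 and 14.1 ± 1.74 (log2 fold change -0.02, SE 0.11, limma adjusted p = 0.906). Pnpla2 was at 25.3 ± 1.32 and 23.8 ± 2.89 (log2 fold change -0.09, SE 0.10, limma adjusted p = 0.581). Cd36 had 0 or 1 read in each of these libraries and was not tested.

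**Figure D3:**
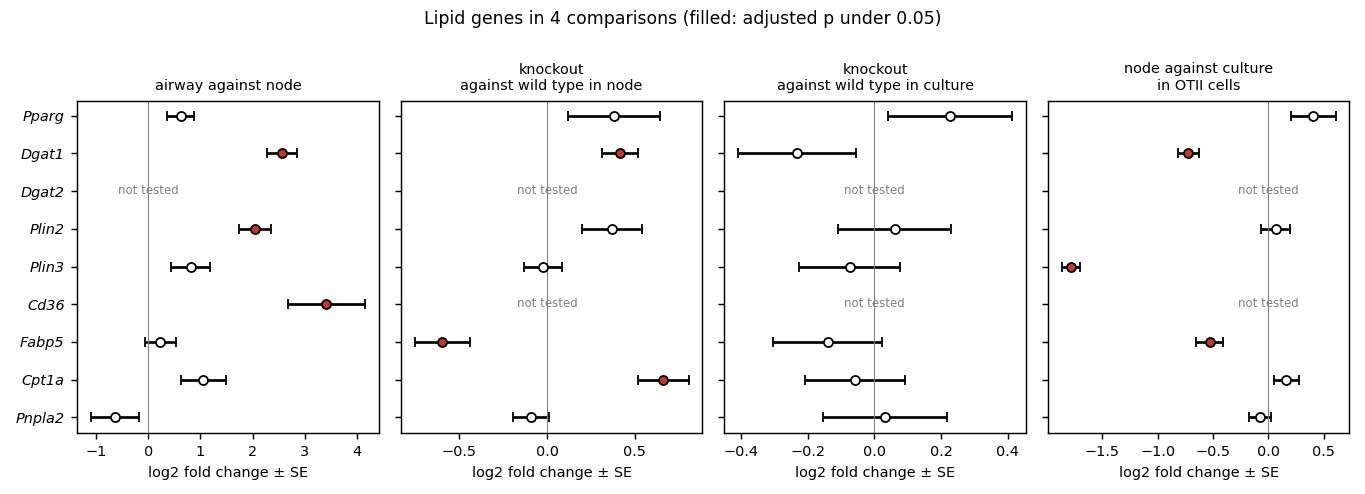
Log2 fold change of each lipid gene with its SE (horizontal axes, which differ between panels) in 4 comparisons; red points have an adjusted p under 0.05 and white points do not, and Cd36 entered the airway panel through the airway libraries only. Dgat1 is above 0 in the airway and in knockout-labelled node cells (2.56 and 0.42) and below 0 in node against culture (-0.72), and no gene is red in culture.

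Some genes that burn fatty acids rose alongside Cpt1a in the node, and most did not pass. Of 24 tested genes of the carnitine shuttle and fatty acid oxidation, 6 rose in knockout-labelled cells, 0 fell and 18 did not pass, where 10.4% of all genes rose and 7.68% fell, with a median log2 fold change of 0.19 against 0.02 over all genes. Acadl, a long-chain acyl-CoA dehydrogenase gene, rose from 36.2 ± 1.81 to 54.5 ± 5.42 (log2 fold change 0.57, adjusted p = 0.00347). Acadvl, its very-long-chain relative, rose from 48.9 ± 2.15 to 65.7 ± 2.21 (adjusted p = 0.00436), and Eci2, an enoyl-CoA isomerase gene, from 26.9 ± 1.07 to 37.6 ± 3.53 (adjusted p = 0.00881). The others that rose were Acadm, Slc25a20 and Crat. With 1 library left out 4 to 8 genes of the list rose, the lowest count without wild type replicate 2 or 3 (4 each), and 0 fell each time.

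**Figure D4:**
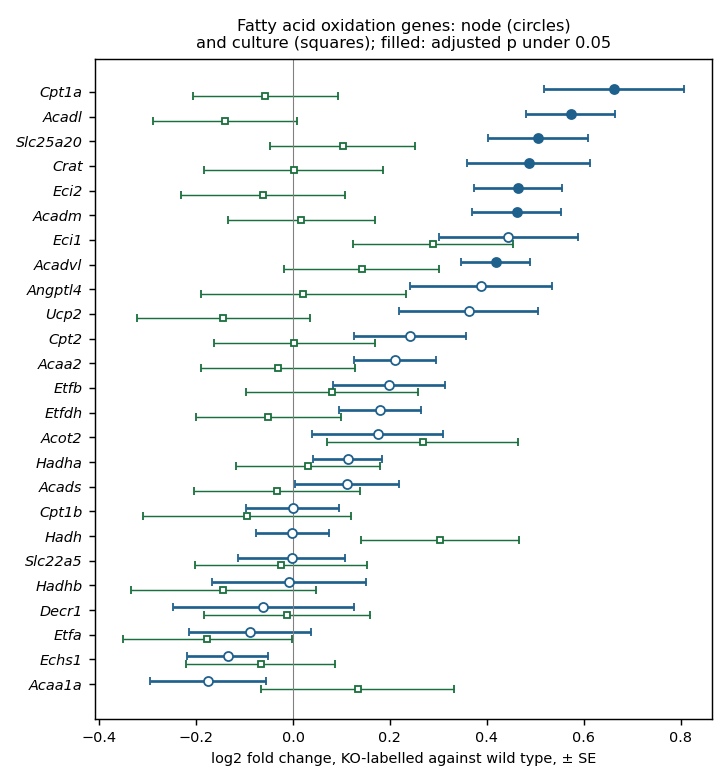
Log2 fold change with SE (horizontal axis) of Cpt1a and the 24 tested genes of the carnitine shuttle and fatty acid oxidation list (vertical axis), knockout-labelled against wild type, in the node (blue circles) and in culture (green squares); filled symbols have an adjusted p under 0.05. In the node Cpt1a leads at 0.66 and 6 list genes are filled, all above 0, and in culture none is filled.

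Of 15 PPAR partner genes that reached a level of 1 in both groups, 3 rose, 0 fell and 12 did not pass (median log2 fold change -0.03), against 10.4% and 7.68% of all genes. The count of 3 was 1 without wild type replicate 2 or 3. Rxra, which encodes the retinoid X receptor that pairs with PPARγ, rose by 1.33 on the log2 scale, from 15.8 ± 1.80 to 41.6 ± 8.61 (adjusted p = 9.10e-04). The coactivator gene Ncoa1 rose from 5.66 ± 0.196 to 7.92 ± 0.481 (adjusted p = 0.0108; 0.0549 and 0.0566 without wild type replicate 2 and 3), and Ncoa2, another coactivator gene, was the remaining rise (adjusted p = 0.0324). Ncoa2 lost the call without wild type replicate 1, 2 or 3 (0.0996, 0.104 and 0.0996) or knockout-labelled replicate 3 or 4 (0.0606 and 0.0642). Cebpa, a factor that works with PPARγ in fat cells and is also made by myeloid cells, stood at 4.80 ± 2.05 in wild type and 0.160 ± 0.101 in knockout-labelled libraries. It reached a level of 1 in wild type only, so the filter favoured a difference and it is given as a description. Marker sums moved with the same groups. Those of 4 lists were lower in every knockout-labelled library than in every wild type one: macrophage 2.86 to 4.48 against 5.33 to 6.90, basophil and mast cell 0.134 to 0.713 against 1.94 to 2.54, eosinophil 2.40 to 6.29 against 6.91 to 7.81, and CD8 and NK 3.97 to 5.06 against 6.76 to 9.68. Each drop rested mostly on a single gene of its list (means in wild type, then knockout-labelled). These were Cd68 (3.34, 1.22), Hdc (2.09, 0.189), Siglecf (6.38, 3.53) and Klrb1c (4.14, 0.268). Some list genes went the other way, among them Cpa3 (0.0537, 0.119) and Cd8b1 (3.52, 4.05). Mcpt8, Fcer1a and Ms4a2 were listed at 0 in both groups. The ILC2 sum was higher in every knockout-labelled library (8.03 to 14.4 against 7.03 to 7.47), but its genes were split. Il17rb and Arg1 were higher on average there. Areg was lower in every knockout-labelled library (0 to 0.065 against 0.724 to 1.78), and Klrg1 was lower on average. The sums of B cell, dendritic cell, neutrophil, epithelial and adipocyte genes overlapped. Their part in the level of Cebpa was not tested.

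Of 13 other synthesis genes 3 rose and 1 fell. Soat1, which makes cholesterol esters, rose from 9.30 ± 0.998 to 16.1 ± 1.99 (log2 fold change 0.73, adjusted p = 0.00351). Lpin2, a phosphatidate phosphatase gene, rose from 8.40 ± 0.658 to 12.9 ± 1.13 (adjusted p = 0.00484), and Agpat2, an acyltransferase gene, from 8.82 ± 0.309 to 13.8 ± 1.94 (adjusted p = 0.00906). Gpd1l, a glycerol-3-phosphate dehydrogenase relative, was the gene that fell (15.9 ± 0.245 to 12.4 ± 0.932, adjusted p = 0.0241). Its call was lost without wild type replicate 1, 2 or 3 (0.0652, 0.0906 and 0.0996), without knockout-labelled replicate 3 or 4 (0.0693 and 0.0705), and with header numbers averaged (0.0559). Of 9 lipolysis genes the phospholipase gene Ddhd2 rose (7.22 ± 0.159 to 10.3 ± 0.770, adjusted p = 0.00776) and 8 did not pass. Of 10 uptake genes the fatty acid transporter gene Slc27a1 rose from 2.35 ± 0.386 to 5.33 ± 1.83 (adjusted p = 0.0290). That call was lost with no filter on low values (0.0691) and without wild type replicate 1, 2 or 3 (0.0886, 0.0635 and 0.104) or knockout-labelled replicate 1, 3 or 4 (0.0584, 0.0644 and 0.0638). None of 7 droplet coat and assembly genes passed.

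In culture no member moved past the threshold between the same genotypes. With limma 0.0% of 10968 genes rose and 0.0% fell, 256 genes had an unadjusted p under 0.05, none of them a member, and limma-voom called 2 genes. Notch1 was at 27.9 ± 2.22 against 2.64 ± 2.24 in 2 libraries each, lower by a log2 fold change of -3.14 (SE 0.38) that did not pass (limma adjusted p = 0.333). Groups of 2 did not overlap in 1 higher member (Pparg) and 1 lower member (Dgat1), against 10.4% and 10.8% of all genes. Pparg was at 5.86 and 5.75 in wild type and at 6.04 and 8.01 in knockout-labelled cultures. Dgat1 was at 21.1 and 27.8 against 21.0 and 19.9, a log2 fold change of -0.23 (SE 0.18), opposite in sign to the node.

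The knockout effect was not shown to differ between node and culture for any of the 7 tested members. Over all 11508 genes in the fit of the 4 OTII groups, 2.35% passed with a higher and 1.49% with a lower effect in the node. The largest differences among members were those of Cpt1a (0.72, SE 0.22, limma adjusted p = 0.106) and Dgat1 (0.65, SE 0.19, limma adjusted p = 0.0906), both larger in the node. Without knockout-labelled node replicate 3 the difference of Cpt1a passed (0.85, adjusted p = 0.0134). Among list genes, higher effects in the node were called for Rxra (1.21, adjusted p = 0.0308), Ddhd2 (0.69, 0.0165), Acadl (0.71, 0.0198) and Soat1 (1.05, 0.0265). These 4 calls depended on single libraries. Rxra lost it without wild type node replicate 1 or 3, knockout-labelled node replicate 1 or 4 or any 1 culture (adjusted p 0.0528 to 0.112), and with no filter on low values (0.0598). Soat1 lost it without wild type node replicate 1 or 2, knockout-labelled node replicate 3 or 4, wild type culture 1 or either knockout-labelled culture (0.0523 to 0.117). Ddhd2 and Acadl lost it without wild type node replicate 3 (0.0512) and 2 (0.0587), respectively, and both without wild type culture 1 or either knockout-labelled culture (0.0535 to 0.0940). With libraries of 1 header number averaged, Soat1 and Ddhd2 did not pass (0.0663 and 0.0618).

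Node and culture were then compared in OTII cells. Against culture, averaged over both genotypes, Dgat1, Plin3 and Fabp5 were lower in the node, 0 of 7 tested members were higher, and 4 did not pass. Of all 11508 genes 21.0% were higher and 24.8% lower in the node, so 3 of 7 again stands against a high background (median log2 fold change -0.07 over the members, -0.02 over all genes). Node cells were sorted from inflamed mice and cultures were grown from naive spleen cells, so place and way of generation cannot be told apart.

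Plin3 gave the widest gap. It was at 13.6 to 15.3 in wild type and 11.5 to 15.1 in knockout-labelled node cells, and at 49.4, 55.8, 49.96 and 49.7 in the 4 cultures. No node library came near a culture (log2 fold change -1.79, SE 0.08, limma adjusted p = 5.76e-08). Dgat1 was lower in the node by 0.72 on the log2 scale (SE 0.09, limma adjusted p = 9.91e-05), with 10.8 to 17.6 there and 19.9 to 27.8 in culture. Both calls held under all 18 other settings. Fabp5 was at 11.6 to 26.3 in the node and 24.1 to 30.9 in culture, and these ranges overlapped (log2 fold change -0.53, SE 0.12, limma adjusted p = 0.00495; 0.183 with wild type libraries only). Pparg stood at a log2 fold change of 0.41 (SE 0.20, limma adjusted p = 0.127; 0.0444 without knockout-labelled node replicate 3). Cpt1a had 0.16 (SE 0.11, limma adjusted p = 0.254), which passed without that same library (0.0267) and turned to -0.20 in wild type libraries only. Plin2 (0.07, SE 0.13) and Pnpla2 (-0.07, SE 0.10) did not pass.

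The balance of droplet coats followed from these levels. Plin2 made up 82.8% ± 6.69 of the summed level of Plin2 and Plin3 in the airway and 66.9% ± 16.8 in the reporter node (SD, n = 3 each). In OTII node cells it made up 35.2% ± 4.71 in wild type and 42.4% ± 5.32 in knockout-labelled libraries. In cultures it lay between 13.4% and 15.5%. The shares of the 4 cultures lay below all 7 OTII node libraries (30.7% to 48.0%), and node replicate 1 of the reporter mice (47.7%) lay among the OTII values. The other coat genes of the family, Plin1, Plin4 and Plin5, had group means of at most 0.229.

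**Figure D5:**
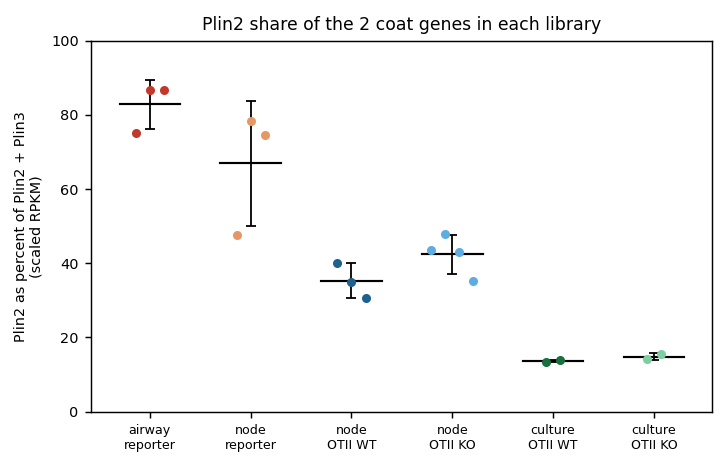
Plin2 as percent of the summed scaled RPKM of Plin2 and Plin3 (vertical axis) in every library (points), with group mean (bar) and SD (whisker). Shares run from 13.4% in a culture to 86.7% in an airway library, and the cultures lie below every other group.

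Lists of related genes held calls in both directions, against 21.0% of all genes higher and 24.8% lower in the node. Of 10 uptake genes that reached a level of 1 in both places, 4 were lower and 1 higher in the node. The lower ones were led by the acyl-CoA synthetase gene Acsl3 (1.56 in the node and 8.99 in culture, adjusted p = 1.71e-06). Vldlr, which encodes a lipoprotein receptor, reached that level in culture only and is given as a description, with 0 to 4 reads in each node library and 99 to 205 in each culture. Got2, a mitochondrial aminotransferase gene, was the higher one (49.2 and 34.9, adjusted p = 1.76e-04). In lipolysis, Mgll, which encodes monoglyceride lipase (3.38 and 14.6, adjusted p = 1.00e-04), and Lipe, which encodes hormone-sensitive lipase (4.53 and 6.32, adjusted p = 0.00426), were lower in the node, and 7 of 9 genes did not pass.

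Of 13 synthesis genes 3 were higher and 4 lower; the 3 became 2 with wild type libraries only. Lpin1 was at 4.26 in the node and 9.63 in culture (adjusted p = 5.65e-06), its relative Lpin2 at 10.97 and 6.21 (adjusted p = 1.06e-04), and Agpat3 at 51.7 and 37.8 (adjusted p = 0.00121). Of 24 oxidation genes 7 were higher in the node and 4 lower (4 and 4 with wild type libraries only), led by Decr1, a dienoyl-CoA reductase gene (16.9 and 5.87, adjusted p = 2.02e-05), Acadvl (58.5 and 37.8, adjusted p = 3.75e-05) and Hadha, a subunit gene of the trifunctional protein (57.3 and 40.4, adjusted p = 5.25e-05). Of 7 droplet genes that reached a level of 1 in both places, Tmem159 was lower (3.65 and 6.17, limma adjusted p = 7.83e-05) and Lpcat1 higher (21.8 and 17.4, limma adjusted p = 0.00196). Of 15 PPAR partner genes that reached a level of 1 in both places, 5 were higher and 2 lower. Over the whole list of 16, with Cebpa (2.15 and 0.0189, at that level in the node only), the counts were 6 and 2, and with wild type libraries only 2 and 0. Rxra was at 30.5 and 8.11 (adjusted p = 4.75e-06) and Ncoa1 at 6.95 and 4.81 (adjusted p = 4.73e-04; 0.105 with wild type libraries only).

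The genes whose levels ran most like Pparg over all 17 libraries were Mthfs (Pearson r = 0.982), Crabp2 (0.981), Cd200r1 (0.981), Mthfsl (0.977) and Snapc3 (0.975), out of 7436 genes compared. Mthfs and Mthfsl bear similar names, and reads may be shared between them. Cd200r1 encodes an inhibitory receptor and Crabp2 a retinoic acid carrier. Cd200r1 was at 175 in the airway, 99.9 in the reporter node and 3.92 to 10.97 in OTII groups. Crabp2 was at 18.2 and 10.9 in the reporter groups and at most 0.232 in OTII groups. Most like Dgat1 were Tmem50a (0.974), Mapkapk3 (0.972), Saraf (0.970), Tbrg1 (0.969) and Slc15a3 (0.969). Saraf, a regulator of calcium entry, was at 502 in the airway, 189 in the reporter node and 102 to 129 in OTII groups. These correlations describe 17 libraries from 2 kinds of mice, and they carry no test.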

How the data were processed

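For each library the deposited table gives RPKM of 24537 genes, each under 1 RefSeq transcript with mm10 positions. Per the submitters' processing notes, reads were processed with HISAT2 2.0.4, HOMER and DESeq2; which step used strand is not given in the sources used here. Low RPKM values were whole multiples of 1 read (tolerance 0.1, below 100 reads) in 99.2% to 99.9% of values, which gave reads per gene. In GENCODE M21 no exon of another gene overlaps the members' exons.

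A scale factor for each library (the median of ratios, taken over the 6796 genes that reached an RPKM of 1 everywhere) divided its RPKM. Tests used limma 3.58.1 in R 4.3.3 (lmFit, eBayes with trend) on log2(scaled RPKM + 1). P-values are two-sided and were adjusted by Benjamini-Hochberg across every gene in the fit, with 0.05 as the threshold. Fold changes are on that scale, which understates low genes. A gene was tested with scaled RPKM of at least 1 in as many libraries as the smallest group of the fit; rose and fell mean past the threshold. For genes that reached that level in 1 group only, the filter favoured a difference, though not all of them passed. Those called are described. All are left out of the main counts of members and lists, a choice made after seeing the data. Comparisons of 2 groups fitted those alone; the others fitted the 4 OTII groups. The test was tested on simulated data.

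Members and lists were chosen with earlier results of these data known; 2 list genes are not reported here and enter no list count. Named were all members, up to 3 called genes of each of 6 lipid lists with the smallest p, the 2 highest genes of each of 11 marker lists, and 5 genes most like Pparg and Dgat1 (mean of at least 5, same transcript); further called genes complete a list's count and were chosen after their values were seen.

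Replicate numbers are not stated to link groups, so no block entered the tests. Deviations of same-numbered libraries correlated at 0.005 to 0.027 (airway), -0.06 to -0.32 (node) and -0.19 (culture). Differently numbered node libraries ran from -0.39 to 0.497. With 2 libraries in each culture group, either pairing gives the same size (-0.19 or 0.19), so that value cannot decide on a pairing. Averaging libraries by header number, and crossed numbers in culture, were added after seeing the data.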

Additional observations from a re-analysis of the deposited data

Results flagged for a closer look

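Plin3 in knockout-labelled node libraries had 1 library far below the rest: replicate 2 was at 11.5 scaled RPKM, and replicates 1, 3 and 4 at 15.0, 14.8 and 15.1. This gap was large for a group of 4; 9 such groups were checked, and chance flags about 1 in 20. Without that library the log2 fold change of Plin3 was 0.06 in place of -0.02, with an adjusted p of 0.571 (limma).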

How the results depend on the processing

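Counts of genes past the threshold moved by over 1.5 times under some settings. In airway against node, 533 became 224 with no filter on low values and 244 in limma-voom, and 113 to 554 with 1 library left out (158, 163 and 113 without node replicate 1, 2 and 3); members called, Cd36 included, went from 3 to 1 with no filter, and 2 to 3 with 1 library left out. In the node knockout comparison, 1965 became 1008 to 2716 with 1 library left out (1008, 1045 and 1303 without wild type replicate 2, 3 and knockout-labelled replicate 4), and 3 members became 0 to 3 (0 without wild type replicate 2 or 3, 1 without knockout-labelled replicate 3). In culture, 0 became 2 in limma-voom, 1 in the fit of 4 groups and 0 to 65 with 1 library left out (65 and 60 without knockout-labelled replicate 2 and 1, 2 without wild type replicate 2). For the difference of effects, 442 became 195 to 555 with 1 library left out (285 and 256 without wild type node replicate 2 and 3, 195 without wild type culture 1, 212 without knockout-labelled culture 2) and 257 with header numbers averaged, and 0 members became 0 to 1 (1 without knockout-labelled node replicate 3). For node against culture, 5270 became 3448 with wild type libraries only and 4559 to 5789 with 1 library left out, and 3 members became 3 to 5 (5 without that same library). The cause was not tested.

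With a replicate block, for numbers not shown to pair the libraries, the counts were 403, 636, 65, 166 and 3382 genes in the 5 comparisons in the order of the report, and the node knockout comparison called 0 members, 0 of 24 oxidation genes and 1 of 16 PPAR partner genes as higher. In node against culture, 4 PPAR partner genes were then higher and 1 lower. Adjusted p was then 0.0867 for Dgat1, 0.158 for Fabp5 and 0.0768 for Cpt1a. With crossed numbers in culture, the replicate block called 8 genes.

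No called member changed direction in any setting, and 25 of 129 such values lost the call. These values include Cd36 in airway against node, where the filter favoured a difference and 4 of 11 settings kept the call. Of 379 values of uncalled members, 17 reversed. With 1 library left out, Plin3 ran from -0.059 to 0.064 in the node (log2 fold change). In culture, Plin2 ran from -0.045 to 0.17, Plin3 from -0.16 to 0.012, Cpt1a from -0.12 to 0.0073 and Pnpla2 from -0.18 to 0.24. In the difference of effects, Pparg ran from -0.096 to 0.34, Plin3 from -0.036 to 0.14 and Pnpla2 from -0.33 to 0.086, and Plin3 was -0.0021 with RPKM as deposited. In node against culture, Plin2 ran from -0.025 to 0.15 and Pnpla2 from -0.18 to 0.034, and wild type libraries only gave -0.088 for Plin2 and -0.20 for Cpt1a. Depth limits Dgat2 and Cd36, whose OTII reads numbered at most 27 and 1 per library.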
